A study of Mus musculus with 24 samples.

Results

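Immune checkpoint genes encode the receptors and ligands that restrain T cells and NK cells, and 10 of them were followed here through a treatment experiment in mouse breast tumors. The members were taken by gene symbol (Pdcd1, Ctla4, Tigit, Lag3, Havcr2, Btla, Cd96, Cd274, Pdcd1lg2 and Tox), and all 10 were found among the 16996 genes with values. RNA was sequenced from CD45+ cells, the leukocyte fraction, which beads enriched from tumors of EMT6-hHER2, a single-cell clone of the murine breast cancer line EMT6 that carries human HER2. All 24 mice were wild-type female Balb/c animals with a tumor in the mammary fat pad, 10-12 weeks old by their sample labels and 8-10 weeks old at injection by the growth protocol. At a tumor volume of 80 mm3 they were left untreated or received trastuzumab (20 mg/kg, the HER2 antibody), T-DM1 (15 mg/kg, trastuzumab linked to a maytansinoid that disrupts microtubules) or T-PNU (1 mg/kg, trastuzumab linked to an anthracycline that damages DNA). Tumors were taken 10 days later, with 6 mice per group and 1 library per mouse. The doses of the 3 agents differed, so each comparison between agents is also one between doses. By the study's methods T-PNU tumors were smaller at harvest than at treatment, and volumes of single tumors at harvest were not analysed here, so tumor size and T-PNU treatment cannot be told apart.

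A checkpoint receptor binds a ligand on a tumor cell, macrophage or dendritic cell and passes an inhibitory signal into the lymphocyte. PD-1 (Pdcd1) binds PD-L1 (Cd274) and PD-L2 (Pdcd1lg2). CTLA-4 (Ctla4) competes with the activating receptor CD28 for CD80 and CD86, and TIGIT (Tigit) and CD96 (Cd96) compete with the activating receptor CD226 for PVR. LAG-3 (Lag3) binds MHC class II, TIM-3 (Havcr2) binds galectin-9 and CEACAM1, and BTLA (Btla) binds HVEM, the product of Tnfrsf14. TOX (Tox) is a nuclear factor that T cells need to persist in the exhausted state. Several of these genes are transcribed after activation of the T cell itself, whereas interferon-gamma is a well-known inducer of the PD-1 ligands on many cell types, and TIM-3 is also found on macrophages and dendritic cells.

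The values were normalized expression levels on a log2 scale as deposited, with sample medians from 8.73 to 8.87. Read depth could not be derived from them and is unknown. The genes share no common sequence rule, and the windows around their start sites are shown here for the 5 members on which the later results turn, each 300 bases long with the start site near its downstream end, read 5′ to 3′ along the gene in RefSeq for GRCm38.p6. Tigit (chr16:43664135-43664434, minus strand) and Cd274 (chr19:29367188-29367487, plus strand) differed between T-PNU and T-DM1 samples. Ctla4 (chr1:60908775-60909074, plus strand) and Cd96 (chr16:46120199-46120498, minus strand) were the pair of members most alike across tumors. Pdcd1lg2 (chr19:29410669-29410968, plus strand) lies next to Cd274. Capitals mark matches on either strand to GGAAA, the core of NFAT sites, and to TTCNNNGAA, the gamma-activated sequence.
Tigit: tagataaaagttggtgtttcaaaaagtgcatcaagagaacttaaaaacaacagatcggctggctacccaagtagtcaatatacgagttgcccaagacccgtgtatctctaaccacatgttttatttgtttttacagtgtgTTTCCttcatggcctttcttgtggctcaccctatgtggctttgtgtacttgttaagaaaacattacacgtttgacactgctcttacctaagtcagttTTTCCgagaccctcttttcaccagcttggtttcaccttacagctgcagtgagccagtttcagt
Cd274: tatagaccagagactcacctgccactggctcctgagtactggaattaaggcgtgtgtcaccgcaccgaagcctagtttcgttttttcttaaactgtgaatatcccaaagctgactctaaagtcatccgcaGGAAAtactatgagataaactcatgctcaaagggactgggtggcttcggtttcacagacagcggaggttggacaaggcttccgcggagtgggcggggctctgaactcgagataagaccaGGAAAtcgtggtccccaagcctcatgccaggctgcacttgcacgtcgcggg
Pdcd1lg2: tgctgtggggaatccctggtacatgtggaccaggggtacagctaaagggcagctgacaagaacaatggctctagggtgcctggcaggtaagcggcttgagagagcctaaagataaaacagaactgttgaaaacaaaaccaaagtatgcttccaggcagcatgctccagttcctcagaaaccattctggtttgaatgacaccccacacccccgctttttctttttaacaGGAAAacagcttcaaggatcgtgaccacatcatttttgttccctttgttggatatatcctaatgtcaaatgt
Ctla4: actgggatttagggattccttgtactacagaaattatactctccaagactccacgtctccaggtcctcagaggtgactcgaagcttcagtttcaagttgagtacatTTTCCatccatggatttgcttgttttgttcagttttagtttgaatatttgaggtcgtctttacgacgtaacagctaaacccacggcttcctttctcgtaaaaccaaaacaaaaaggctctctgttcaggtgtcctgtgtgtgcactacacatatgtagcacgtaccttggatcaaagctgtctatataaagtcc
Cd96: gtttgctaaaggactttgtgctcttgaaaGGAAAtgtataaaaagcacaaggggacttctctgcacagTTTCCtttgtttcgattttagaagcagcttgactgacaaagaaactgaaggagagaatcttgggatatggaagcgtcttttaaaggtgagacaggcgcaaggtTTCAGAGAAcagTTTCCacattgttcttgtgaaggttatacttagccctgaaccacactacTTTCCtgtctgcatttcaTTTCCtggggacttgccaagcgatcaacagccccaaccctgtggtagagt
Of the 8 members with a window in the RefSeq table (all but Lag3 and Tox), 6 held GGAAA, 13 matches in all, and 5 of these lay in the Cd96 window. The 2 windows without it were those of Havcr2 and Btla. The core is short, and 61.3% of all 32851 windows of the same length held it. The gamma-activated sequence was found once, in Cd96, and in 8.30% of all windows. The interferon-stimulated response element was found in 0 of the 8 windows and in 3.44% of all. No base of the 8 windows lay in matches to more than 1 of these motifs. The Cd274 window had 15 CpG dinucleotides, against 3 to 8 in the 7 others, and its PD-L2 neighbour had 3.

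The mean levels of the 10 genes ranged from above 36.6% of all genes (Tox) to above 98.6% (Cd274). Cd274 (ENSMUSG00000016496, chromosome 19, 29367455 to 29388095) was the most abundant, with a mean log2 level of 14.26 over the 24 samples. Havcr2 (ENSMUSG00000020399, chromosome 11, 46454935 to 46481255) followed at 11.87, above 88.3%. Scaled to exon length, as log2 level per kilobase, the order was Cd274 (12.40), Havcr2 (10.43), Tigit (9.01), Pdcd1 (8.79), Ctla4 (8.61), Lag3 (8.35), Pdcd1lg2 (7.83), Cd96 (7.36), Btla (6.09) and Tox (4.22). Among Tigit, Pdcd1, Ctla4 and Lag3 each gap between neighbours was smaller than the SD of either gene over the 24 samples. The order was not tested. The gap from Pdcd1lg2 to Cd96 was also within the SD of both. Cd96 (SD 1.045 log2 units over the 24 samples), Tox (0.92), Btla (0.80) and Ctla4 (0.77) had the widest spread between mice, and Lag3 (0.40), Cd274 (0.38) and Havcr2 (0.31) the narrowest.

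Libraries that stand apart touch every comparison and are given first. The heatmaps of the study leave out untreated mice B1 and C1 and trastuzumab mice E2 and B3, and the methods say that possible outliers were removed by similarity of expression without naming them. The main comparisons are therefore given for all 24 samples and then for the other 20. The T cell level, taken as the mean log2 value of 10 T cell genes (Cd3d, Cd3e, Cd3g, Cd247, Cd2, Cd5, Cd6, Lat, Zap70 and Lck), was 11.06 in untreated B1 and 7.91 to 9.59 in the other untreated mice. It was 10.76 in trastuzumab E2, 10.28 in B3 and 8.15 to 9.20 in the other 4 trastuzumab mice. T-DM1 mice lay between 8.02 (H3) and 10.47 (E3), and T-PNU mice between 8.92 (G1) and 11.44 (C2). Untreated C1 held the highest levels in its group of Pdcd1, Tigit, Lag3, Havcr2, Cd274 and Pdcd1lg2, and untreated B1 those of Ctla4, Btla, Tox and Cd96. Ptprc, which encodes CD45, was high throughout, at 14.01 to 15.52. It ran from 14.01 to 14.61 in T-DM1 mice and from 14.75 to 15.52 in T-PNU mice, without overlap. Keratin, collagen and endothelial genes were also present, with a mean of 10.41 to 11.26 over 9 tumor and stromal markers. In bulk RNA of this kind, more cells of a type and more RNA per cell cannot be told apart. Untreated mice carried 1 series of mouse numbers and treated mice another, and that difference and treatment cannot be told apart.

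**Figure D1:**
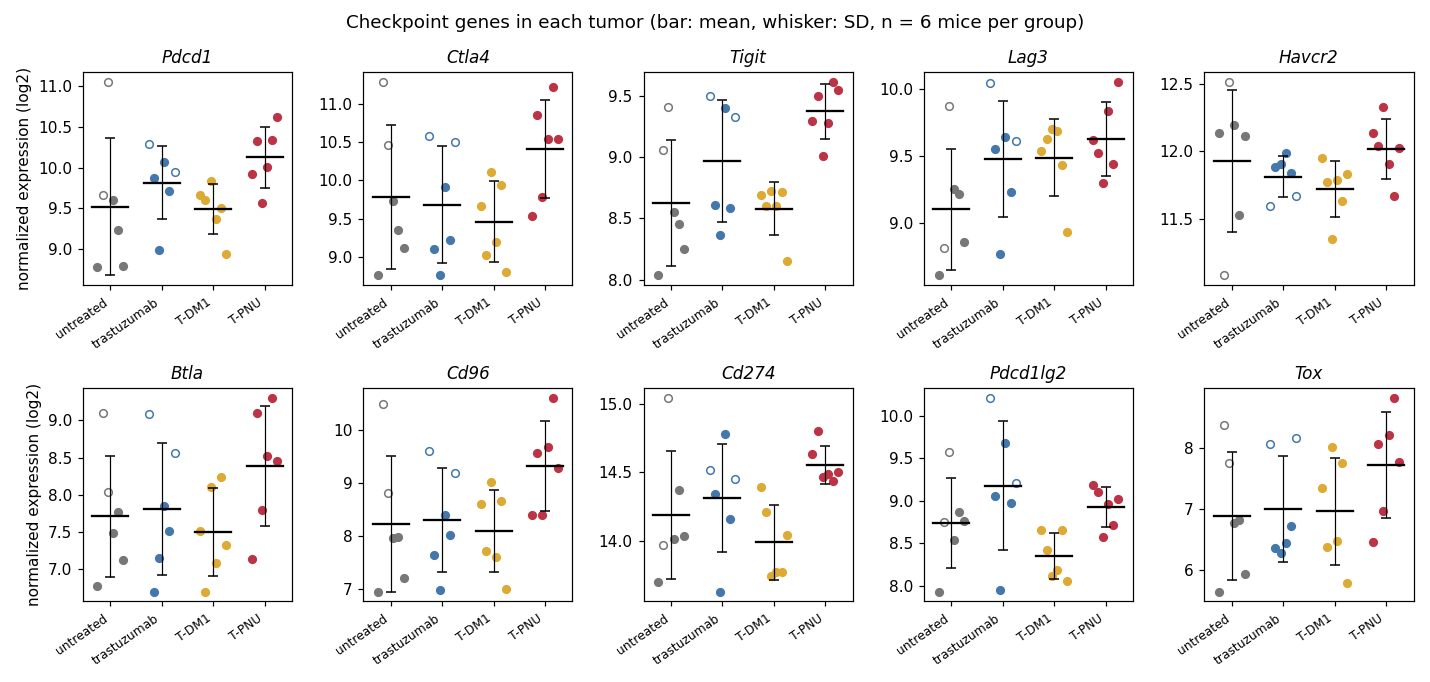
Normalized expression (log2, vertical axis) of the 10 checkpoint genes in each of 24 tumors, by treatment (horizontal axis). Points are mice, open points the 4 mice left out of the study's heatmaps, bars the mean and whiskers the SD (n = 6). The 6 T-PNU mice lie above all 6 T-DM1 mice for Tigit and Cd274, and the highest untreated point is an open one for all 10 genes.

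The first question was whether T-PNU raised checkpoint expression over that of untreated tumors. Over the 24 samples all 10 genes had a higher mean with T-PNU, with a median difference of 0.62 log2 units against 0.0080 over all genes. None of the 10 passed an adjusted p of 0.05 in limma (adjusted over all 16996 genes). The background of calls was low as well, since 0.135% of all genes were called higher. An unadjusted p under 0.05 was found for 3 members (Tigit, Lag3 and Pdcd1), beside 4218 of all 16996 genes in either direction. With the 20 samples 8 of the 10 were called higher, all except Havcr2 and Pdcd1lg2, and 15.3% of all genes were. The number of calls depended on the libraries and on their weights. Without untreated C1 alone 4 members passed (Pdcd1, Tigit, Lag3 and Cd274) beside 7.55% of all genes called higher, and with all 24 libraries weighted by their agreement with their group 8 passed beside 17.1%.

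Tigit (ENSMUSG00000071552, chromosome 16, 43648867 to 43664146) was the receptor that stood out most clearly. In untreated mice its log2 level ran from 8.04 to 9.41 (median 8.51), in trastuzumab mice from 8.37 to 9.50 (median 8.97), in T-DM1 mice from 8.15 to 8.72 (median 8.65) and in T-PNU mice from 9.01 to 9.62 (median 9.40). Only B1 (9.06) and C1 (9.41) among the untreated mice reached the T-PNU range. The difference between T-PNU and untreated means was 0.75 log2 units (95% CI 0.31 to 1.19, limma adjusted p = 0.0719), or 1.68-fold. Without the 4 libraries it was 1.05 (95% CI 0.70 to 1.41, adjusted p = 0.00184). The genes whose deviations from the group means followed Tigit most closely over the 24 tumors were Il2rb (r = 0.96), which encodes an interleukin receptor chain of activated T cells and NK cells, the CD8 coreceptor Cd8a (r = 0.94) and the protease gene Ctsw (r = 0.93).

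Pdcd1 and Lag3, receptors of activated and exhausted T cells, had their highest untreated values in C1. Pdcd1 (ENSMUSG00000026285, chromosome 1, 94038305 to 94052553) ran from 8.78 to 11.06 in untreated mice (median 9.42), with C1 at the top, and from 9.56 to 10.62 in T-PNU mice (median 10.17). Its mean was 9.52 ± 0.84 (SD, n = 6) untreated, 9.82 ± 0.45 with trastuzumab, 9.49 ± 0.31 with T-DM1 and 10.13 ± 0.37 with T-PNU. No T-PNU mouse reached untreated C1. The difference between T-PNU and untreated mice was 0.61 (limma adjusted p = 0.196) over the 24 samples and 1.03 (adjusted p = 0.00537) over the 20. For Lag3 (ENSMUSG00000030124, chromosome 6, 124904361 to 124911705) the range was 8.61 to 9.88 in untreated mice (median 9.04) and 9.30 to 10.06 in T-PNU mice (median 9.57), a difference of 0.53 (adjusted p = 0.125) over the 24 and 0.65 (adjusted p = 0.0169) over the 20. The Lag3 level was 9.49 ± 0.29 (SD, n = 6) with T-DM1 and 9.63 ± 0.28 (SD, n = 6) with T-PNU. Nkg7, a gene of cytotoxic granules, was among the 3 genes most like each of them (r = 0.95 with Pdcd1 and 0.88 with Lag3).

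Ctla4, Btla, Cd96 and Tox had the widest spread within groups and untreated B1 on top of the untreated mice. Cd96 (ENSMUSG00000022657, chromosome 16, 46035657 to 46120251) ran from 6.96 to 10.48 in untreated mice (median 7.98), from 6.99 to 9.61 with trastuzumab (median 8.21), from 7.001 to 9.03 with T-DM1 (median 8.16) and from 8.39 to 10.60 with T-PNU (median 9.42). T-PNU mice and untreated mice overlapped through B1 and C1 and through no other untreated mouse. The difference was the largest among the members, 1.08 (95% CI -0.020 to 2.18, limma adjusted p = 0.209) over the 24 samples and 1.79 (95% CI 0.89 to 2.68, adjusted p = 0.00768) over the 20. Ctla4 (ENSMUSG00000026011, chromosome 1, 60887000 to 60915832), a receptor of activated and regulatory T cells, ran from 8.76 to 11.29 untreated (median 9.54) and from 9.54 to 11.21 with T-PNU (median 10.54), which gave 0.63 (adjusted p = 0.311) and 1.17 (adjusted p = 0.0127). Btla (ENSMUSG00000052013, chromosome 16, 45224315 to 45257670), which B cells carry as well as T cells, ran from 6.78 to 9.09 untreated (median 7.63) and from 7.14 to 9.30 with T-PNU (median 8.49), with differences of 0.67 (adjusted p = 0.312) and 1.095 (adjusted p = 0.0327). In Tox (ENSMUSG00000041272, chromosome 4, 6686353 to 6991557) the ranges were 5.65 to 8.38 (median 6.80) and 6.46 to 8.82 (median 7.92), with differences of 0.83 (adjusted p = 0.284) and 1.43 (adjusted p = 0.0213). In these 4 genes the lowest T-PNU values came from mice G1 and A2, and those mice also had the lowest T cell levels of the group, 8.92 and 9.16. The study calls 4 of its T-PNU samples high-responding and marks low-responding ones in its heatmaps. That division was not used here.

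The PD-1 ligands and TIM-3 had the smallest differences from untreated mice. Cd274 ran from 13.70 to 15.04 in untreated mice (median 14.03), from 13.63 to 14.78 with trastuzumab (median 14.40), from 13.74 to 14.39 with T-DM1 (median 13.91) and from 14.44 to 14.80 with T-PNU (median 14.49). T-PNU mice were the most uniform, with an SD of 0.14 against 0.27 to 0.47 in the other groups, a spread that was not tested. The difference between T-PNU and untreated means was 0.37 (limma adjusted p = 0.226) over the 24 samples and 0.52 (adjusted p = 0.0319) over the 20. Pdcd1lg2 (ENSMUSG00000016498, chromosome 19, 29410919 to 29471161) was highest with trastuzumab, at 9.18 ± 0.76 (SD, n = 6), beside 8.93 ± 0.23 with T-PNU, 8.74 ± 0.53 untreated and 8.35 ± 0.27 with T-DM1. Its T-PNU difference from untreated mice was 0.19 (95% CI -0.37 to 0.75, adjusted p = 0.656) and 0.40 (adjusted p = 0.206) without the 4 libraries. Havcr2 ran from 11.09 to 12.52 in untreated mice (median 12.13) and from 11.68 to 12.33 with T-PNU (median 12.03), so that the T-PNU values lay inside the untreated range. The difference of 0.086 (95% CI -0.27 to 0.44, adjusted p = 0.757) became 0.020 (95% CI -0.26 to 0.30, adjusted p = 0.918) over the 20.

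By overlap of the groups, 0 of the 10 genes had all 6 T-PNU mice above all 6 untreated mice, as did 0.341% of all genes. Over the 20 samples 4 did (Tigit, Lag3, Cd274 and Cd96), beside 8.03% of all genes. B1 and C1 are the 2 untreated mice removed between these counts.

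The second question was whether the 2 conjugates differed, T-PNU against T-DM1, which were given at different doses as well as with different payloads. None of the 4 libraries enters this comparison except through the shared estimate of the spread. All 10 genes again had the higher mean with T-PNU, with a median of 0.70 log2 units against 0.030 over all genes. Called higher were 2 of the 10, Tigit and Cd274, where 12.4% of all genes were called higher. An unadjusted p under 0.05 was found for 7 of the 10, beside 7290 of all 16996 genes in either direction. Tigit was 0.80 log2 units higher (95% CI 0.35 to 1.24, limma adjusted p = 0.00962), or 1.74-fold, and its lowest T-PNU mouse (A2, 9.01) lay above its highest T-DM1 mouse (E3, 8.72). Cd274 was 0.57 higher (95% CI 0.18 to 0.96, adjusted p = 0.0279), or 1.48-fold, with the lowest T-PNU mouse (C2, 14.44) above the highest T-DM1 mouse (C3, 14.39). These were the 2 members without overlap between the groups, as in 5.45% of all genes. Ptprc was also higher with T-PNU, by 0.76 (limma adjusted p = 0.00569). The part of leukocyte content in the member differences was not tested. The call for Tigit held without any single library, and that for Cd274 was lost without T-DM1 mouse E3, F3 or G3 or T-PNU mouse H1, with an adjusted p of up to 0.0714.

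Among the other 8 members the difference between T-PNU and T-DM1 ran from 0.14 for Lag3 (adjusted p = 0.605) to 1.22 for Cd96 (adjusted p = 0.0844). Ctla4 stood at 0.95 (adjusted p = 0.0699), Btla at 0.89 (0.112), Tox at 0.76 (0.243), Pdcd1 at 0.64 (0.0942), Pdcd1lg2 at 0.58 (0.103) and Havcr2 at 0.29 (0.188), all from limma. With the spread estimated from the 20 samples the same differences gave 7 calls, Tigit, Cd274, Ctla4, Cd96, Pdcd1, Btla and Pdcd1lg2, beside 19.8% of all genes called higher. Lag3 (95% CI -0.21 to 0.49), Havcr2 (95% CI 0.046 to 0.54, adjusted p = 0.0549) and Tox (95% CI -0.059 to 1.57) were not called in either fit, and the interval for Tox leaves room for a difference as large as that of Cd96.

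**Figure D2:**
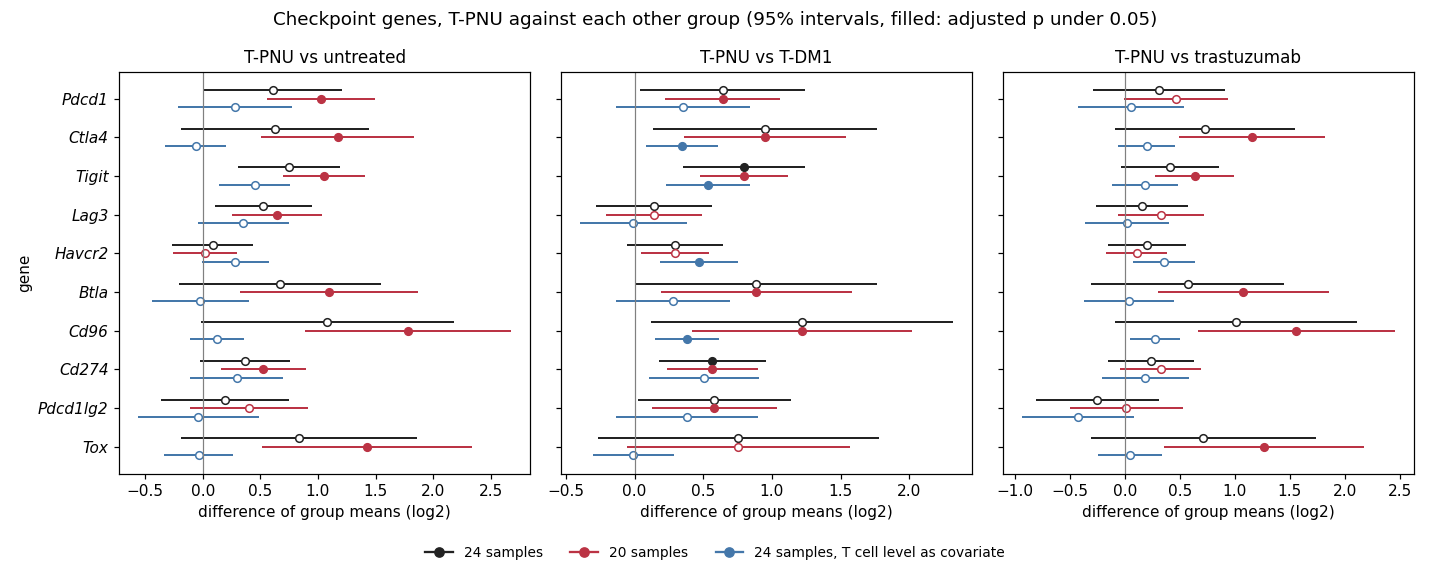
Difference of group means (log2, horizontal axis) with 95% intervals from limma for each checkpoint gene (vertical axis), T-PNU against untreated, T-DM1 and trastuzumab mice. Black is the fit of 24 samples, red that of the 20 heatmap samples, blue that of 24 with the T cell level as a covariate, and filled points have an adjusted p under 0.05. The black fit has 2 filled points, Tigit and Cd274 against T-DM1, and the red fit has 8, 7 and 5 in the order of the panels.

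Against trastuzumab, the antibody without payload, 0 of the 10 genes were called over the 24 samples, with 0.00588% of all genes called in either direction. An unadjusted p under 0.05 was found for 0 of the 10, beside 3308 of all 16996 genes. Without the 4 libraries, 2 of which are trastuzumab mice, Btla, Cd96, Ctla4, Tigit and Tox were called higher with T-PNU, 5 of 10 beside 14.6% of all genes. Cd96 differed by 1.01 (95% CI -0.090 to 2.11, limma adjusted p = 0.285) and then by 1.56 (95% CI 0.66 to 2.45, adjusted p = 0.0178), and Tigit by 0.41 (adjusted p = 0.283) and then 0.64 (adjusted p = 0.0166). Pdcd1lg2 was the member with a lower mean in T-PNU than in trastuzumab mice, by -0.25 (adjusted p = 0.586), and stood at 0.015 (adjusted p = 0.968) over the 20.

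The comparisons without T-PNU gave no call over the 24 samples without covariate or weights. In T-DM1 against untreated mice, which share the untreated group with the first comparison, 0 of 10 genes passed, while 6.27% of all genes were called in either direction. An unadjusted p under 0.05 was found for 0 of the 10, beside 3973 of all 16996 genes. The mean was lower with T-DM1 in 8 of the 10 (median difference -0.17). Over the 20 samples this turned around, with 7 of the 10 higher with T-DM1 (median 0.24) and 0 called. There 1 of them (Lag3) had an unadjusted p under 0.05, beside 3068 of all genes. Lag3 had the largest positive value, 0.38 (95% CI -0.038 to 0.80, limma adjusted p = 0.262). In trastuzumab against untreated mice 0 passed, beside 0.259% of all genes, with Lag3 at 0.37 (limma adjusted p = 0.661). At an unadjusted p under 0.05 there were also 0 of the 10, beside 1491 of all 16996 genes. In T-DM1 against trastuzumab mice 0 passed, beside 0.647% of all genes. An unadjusted p under 0.05 was found for 2604 of all 16996 genes and for 1 of the 10. That gene was Pdcd1lg2, at -0.83 (95% CI -1.39 to -0.27, adjusted p = 0.149), which became -1.08 (adjusted p = 0.0261) without trastuzumab mouse G2 and -0.57 (adjusted p = 0.311) over the 20 samples.

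How the 10 genes moved together was described by the correlation of their deviations from the group means over the 24 tumors. All points come from the same libraries and share their T cell content, so these values carry no test. Ctla4, Cd96, Tox and Btla formed the tightest set, with r from 0.90 to 0.97 between any 2 of them. Tigit lay between this set (r = 0.71 to 0.86) and Pdcd1 (r = 0.87) and Lag3 (r = 0.74). The ligands Cd274 and Pdcd1lg2, 22.8 kb apart on chromosome 19, had r = 0.81 with each other, and Cd274 had no more than 0.32 with Ctla4, Cd96, Tox or Btla. Havcr2 went the other way, with r from -0.63 to -0.52 with those 4 genes. Tigit, Btla and Cd96 share chromosome 16 at distances of 778 to 2372 kb, and their r ran from 0.71 to 0.90.

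Against marker lists of cell types the members divided in the same manner. Cd96 (r = 0.98), Tox (0.97), Ctla4 (0.96) and Btla (0.90) followed the T cell level, and Btla followed the mean of 8 B cell markers equally closely (0.90). The Ctla4 level followed 4 regulatory T cell markers with r = 0.94. Pdcd1lg2 (0.92), Tigit (0.88), Pdcd1 (0.85) and Lag3 (0.79) were closest to the mean of 10 interferon-gamma response genes. Over the 20 samples this held for Pdcd1lg2 (0.94) and Lag3 (0.74), whereas Tigit (0.84 against 0.78) and Pdcd1 (0.77 against 0.71) were closer to the regulatory T cell markers. Cd274 was closest to 6 NK cell markers (0.89), with 0.78 for the interferon-gamma list and 0.21 for the T cell level. Some of these values rested on a few tumors. Without C1 and G2, the 2 farthest from the median interferon-gamma level, r with that list was 0.88 for Pdcd1lg2 and 0.83 for Tigit. It was 0.73 for Pdcd1, 0.63 for Lag3 and 0.56 for Cd274. Lag3 had 0.73 with the T cell level without B1 and C2, the 2 farthest in that level. Havcr2 was closest to 10 macrophage and monocyte markers (0.88) and ran against the T cell level (-0.64). Without the 2 mice farthest in each level, r was 0.76 with the macrophage and monocyte markers (without B1 and E3). With the T cell level it was -0.455 (without B1 and C2).

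The 3 genes most like each member, among symbol-bearing genes whose mean exceeded the table's median, were picked from the same deviations. Their likeness to this division is therefore not independent of it. For Ctla4 the 3 genes were Icos (r = 0.99), Cd28 (0.99) and Cd3g (0.98), and its receptor relatives Icos and Cd28 lie 62.1 and 114 kb from it on chromosome 1. For Cd96 they were the T cell signaling genes Skap1 (0.99), Camk4 (0.99) and Cd3d (0.99), for Tox they included Rhoh and Il21r (r of 0.97 or above), and for Btla they were Panx1, Irf4 and P2ry10 (0.96 to 0.97). Beside Nkg7, Pdcd1 was most like Rgs16 (0.95) and Cd8a (0.93), and Lag3 like H2-T23 and Osgin1 (0.87 each). Cd274 was most like Parp14 (0.97), Cers6 (0.94) and Rnf213 (0.93), and Pdcd1lg2 like Fam26f, Gbp8 and Gbp4 (0.93 each), the Gbp genes being interferon-induced GTPases. Havcr2 was most like Naip2, Lpcat2 and the Fc receptor gene Fcgr2b (0.96 each). Over the 20 samples the first of these genes kept an r of 0.86 to 0.99 for every member. Membership of the 3 changed for some members. Rhoh (0.96) and Il21r (0.97) for Tox and H2-T23 (0.76) and Osgin1 (0.82) for Lag3 were no longer among the 3 most alike.

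**Figure D3:**
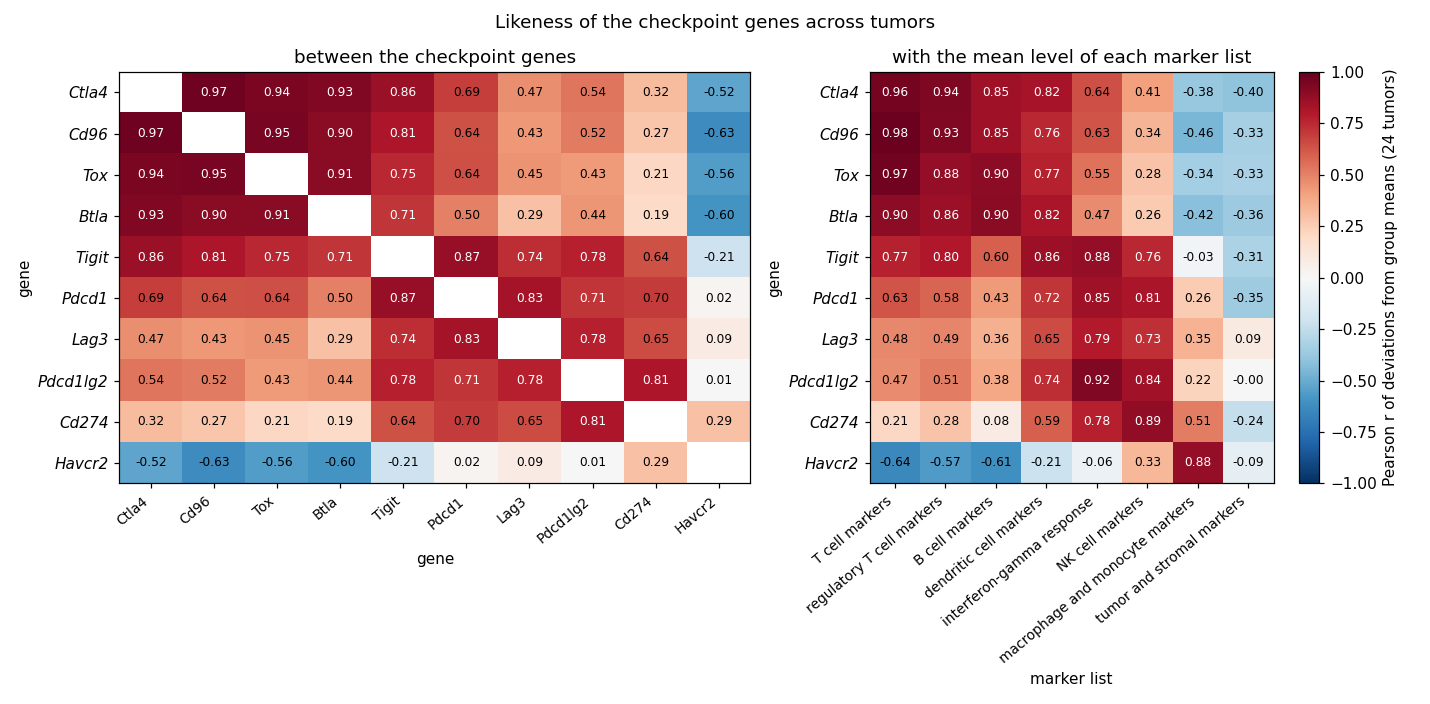
Pearson r of deviations from the group means over 24 tumors, between the checkpoint genes (left) and with the mean log2 level of 8 marker lists (right), with color and printed number giving r. Ctla4, Cd96, Tox and Btla form a block with r of at least 0.90, and Havcr2 is negative with that block and 0.88 with the macrophage and monocyte markers.

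Since 4 of the genes followed the T cell level this closely, the fit of the 24 samples was repeated with the T cell level as a covariate. For T-PNU against untreated mice the median difference of the 10 genes was then 0.20 and 0 were called. An unadjusted p under 0.05 was found for 1 (Tigit), beside 3005 of all 16996 genes. Ctla4 (-0.062), Btla (-0.022) and Tox (-0.038) lay close to 0, each with a narrower interval than before, and Cd96 stood at 0.13 (95% CI -0.11 to 0.36). Tigit kept 0.45 (95% CI 0.14 to 0.76, limma adjusted p = 0.139). With both the covariate and the 20 samples, a fit chosen after the data had been seen, Tigit was the 1 member called (0.67, adjusted p = 0.0395) beside 1.55% of all genes higher.

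For T-PNU against T-DM1 the covariate left 4 genes called higher, beside 12.0% of all genes. These were Tigit at 0.53 (adjusted p = 0.0105), Cd96 at 0.38 (adjusted p = 0.0151), Havcr2 at 0.47 (adjusted p = 0.0157) and Ctla4 at 0.35 (adjusted p = 0.0433) in limma. Cd274 kept nearly the same difference, 0.50 (95% CI 0.11 to 0.90), with an adjusted p of 0.0535. Lag3 (-0.010) and Tox (-0.0089) were at 0. With the 20 samples and the covariate Cd274 joined the 4 (0.53, adjusted p = 0.0233), 5 of 10 beside 16.6% of all genes. For T-DM1 against untreated mice the covariate gave 1 call, Ctla4 lower by -0.41 (95% CI -0.66 to -0.16, adjusted p = 0.0217), where 8.19% of all genes were called lower. Ctla4 had stood at -0.33 (adjusted p = 0.669) without the covariate. The mean of 10 macrophage and monocyte markers ran from 13.95 to 14.56 in T-PNU and from 13.29 to 13.89 in T-DM1 mice. Without the covariate 7 of the 10 were called higher with T-PNU, beside 12.4% of all genes. The part of these cells in the Havcr2 difference was not tested.

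**Figure D4:**
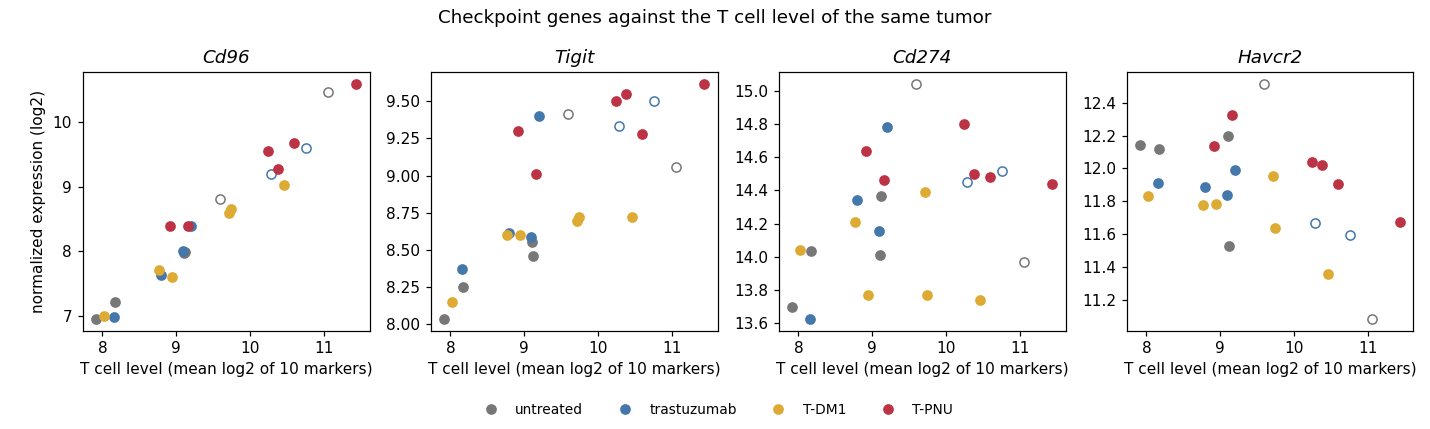
Normalized expression (log2, vertical axis) of Cd96, Tigit, Cd274 and Havcr2 against the T cell level of the same tumor (mean log2 value of 10 T cell genes, horizontal axis), 24 mice colored by treatment, with the 4 mice left out of the heatmaps as open points. Cd96 follows the T cell level (r = 0.98 within groups), Havcr2 runs against it (r = -0.64), and the T-PNU mice lie above the T-DM1 mice in Tigit and Cd274.

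The genes around the members were read from lists in the same fits. Of 10 genes for binding partners 9 had values (all but Fgl1), and their median difference between T-PNU and untreated mice was 0.15, from Tnfrsf14 at 0.49 (adjusted p = 0.226) to Pvr at -0.15 (adjusted p = 0.390). Over the 24 samples 0 were called, with 1 at an unadjusted p under 0.05, beside 4218 of all 16996 genes. Over the 20 samples Tnfrsf14, which encodes the BTLA ligand HVEM, was called higher by 0.74 (limma adjusted p = 0.0153). The TIM-3 ligand genes Ceacam1 and Lgals9 were called higher by 0.43 and 0.28. Pvr, the shared ligand of TIGIT and CD96, was called lower by -0.30 (limma adjusted p = 0.0268), and the other partners were not called. In that fit 15.3% of all genes were called higher and 2672 of the 16996 lower. Against T-DM1 the 24 samples gave 2 partners higher, Ceacam1 (0.54, limma adjusted p = 0.00818) and Cd86 (0.40, adjusted p = 0.00488), beside 12.4% of all genes. The 2 lower, beside 17.4% of all genes, were Pvr (-0.40, adjusted p = 0.0139) and Nectin2 (-0.35, adjusted p = 0.0427), which encodes another TIGIT ligand. For TIGIT, lower RNA of these 2 ligand genes and higher RNA of the receptor stood side by side in that comparison. Among tumor and stromal markers, Col1a1 (-1.62), Col1a2 (-1.36), Col3a1 (-1.38) and Krt8 (-0.96) were also called lower there. Krt14 (1.015), Epcam (0.84), Pecam1 (0.72) and Cdh5 (0.66) were called higher. Which cells carried the ligand RNA was not tested. Cd80 was at 0.22 against untreated mice and 0.028 against T-DM1.

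Most of the other inhibitory genes were also higher with T-PNU than with T-DM1. Of 11 such receptors and ligands, 8 were called higher and 1 lower in T-PNU than in T-DM1 mice over the 24 samples, where 12.4% of all genes were called higher and 17.4% lower. The higher ones were Cd244a, Vtcn1, Klrg1, Klrc1, Lair1, Vsir, Cd200r1 and Entpd1, from 0.42 for Klrg1 to 0.84 for Klrc1, an inhibitory receptor of NK cells and CD8 T cells. Cd276, which encodes an inhibitory ligand, was lower by -0.63 (limma adjusted p = 0.0295). Cd160 and Cd200 were added among the higher genes with the 20 samples. Against untreated mice 0 of the 11 were called over the 24, and the values ran from Cd276 at -0.086 to Klrc1 at 0.73. An unadjusted p under 0.05 was found for 6 of them, beside 4218 of all 16996 genes. Over the 20 samples 8 were called, beside 15.3% of all genes, led by Klrc1 at 1.08 (limma adjusted p = 0.00590). Lair1, a collagen receptor, was the 1 gene of this list called between T-DM1 and untreated mice over the 20, lower by -0.54 (adjusted p = 0.0273).

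Of 10 costimulatory receptors, Icos (1.06), Cd226 (0.99) and Slamf6 (0.86) were called higher in T-PNU than in T-DM1 mice over the 24 samples, 3 of 10 beside the 12.4% of all genes, and Tnfrsf9 was at -0.014 (adjusted p = 0.901). Crtam and Cd28 joined them over the 20, beside 19.8% of all genes, with Cd28 at 1.36 (limma adjusted p = 0.00993). Against untreated mice 0 were called over the 24 (1 at an unadjusted p under 0.05, beside 4218 of all 16996 genes). The largest was Cd27 at 1.14 (limma adjusted p = 0.241). Over the 20 samples 9 were called (Cd28, Icos, Cd226, Slamf6, Cd40lg, Tnfrsf4, Tnfrsf18, Cd27 and Crtam) beside 15.3% of all genes. Among these Cd28 was the largest at 1.88 (limma adjusted p = 0.00651). Cd226, whose product is the activating counterpart of TIGIT and CD96, was at 0.65 (adjusted p = 0.243) over the 24 and 1.23 (adjusted p = 0.00604) over the 20.

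Of 12 transcription factors of effector and exhausted T cells, 3 were called higher against T-DM1 over the 24 samples, beside 12.4% of all genes. They were Eomes (0.68), Tbx21 (0.85) and Nfatc2 (0.37). Nr4a2 was added over the 20, beside 19.8% of all genes. Values over the 24 ran from Nr4a1 at -0.038 to Irf4 at 0.91 (limma adjusted p = 0.171). Against untreated mice 9 of the 12 had an unadjusted p under 0.05 over the 24, beside 4218 of all 16996 genes. Of the 12, 0 were called there, and Prdm1 was the smallest at 0.056. Over the 20 there were 10 (Nr4a1, Nr4a2, Nr4a3, Nfatc1, Nfatc2, Tox2, Eomes, Tbx21, Tcf7 and Irf4), beside 15.3% of all genes. The largest was Tcf7, a factor of naive and memory T cells, at 1.81 (limma adjusted p = 0.0186). Prdm1 and Batf were the 2 not called. Of 10 interferon-gamma response genes, 2 were called higher against T-DM1 over the 24, among them Irf1 (0.63), beside 12.4% of all genes. Ifng (0.86 in both), Cxcl10, Igtp and Ciita were added over the 20, beside 19.8% of all genes. Gbp2 was the smallest at -0.00076. Against untreated mice 3 of the 10 had an unadjusted p under 0.05 over the 24, beside 4218 of all 16996 genes. Of the 10, 0 were called there, and Igtp was the largest at 0.58 (limma adjusted p = 0.185). Over the 20 there were 5, beside 15.3% of all genes, among them Ifng, Irf1, Igtp and Socs1. Cxcl9 stood at -0.13 (adjusted p = 0.758) over the 24 and -0.0038 (adjusted p = 0.993) over the 20.

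Markers of the cell types that the CD45+ fraction could hold were counted in the same fits, and their part in the differences was not tested. Between T-PNU and T-DM1 mice, over the 24 samples, 0 of 10 T cell markers, 0 of 3 CD4 and CD8 coreceptor genes, 0 of 8 B cell markers, 2 of 4 regulatory T cell markers and 4 of 6 NK cell markers were called higher by limma. Of the other lists, 7 of 10 macrophage and monocyte markers, 2 of 10 dendritic cell markers, 1 of 5 neutrophil markers and Ptprc were called higher. The dendritic cell marker Fscn1 was called lower, and of 9 tumor and stromal markers 4 were called higher and 4 lower. Over all genes 12.4% were called higher and 17.4% lower in that comparison. Between T-PNU and untreated mice the 24 samples gave 1 call in these lists, beside 0.135% of all genes called higher. It was Krt14, a keratin of basal epithelium, at 1.15 (limma adjusted p = 0.0470). Over the 20 samples 15.3% of all genes were called higher and 2672 of the 16996 lower. The 20 samples gave 10 of 10 T cell markers, 3 of 3 coreceptor genes, 4 of 4 regulatory T cell markers, 6 of 6 NK cell markers, 0 of 8 B cell markers, 2 of 10 macrophage and monocyte markers, 6 of 10 dendritic cell markers, 3 of 5 neutrophil markers and Ptprc higher, and 3 of 9 tumor and stromal markers in each direction. The T cell level of 8.92 to 11.44 in T-PNU mice overlapped that of every other group, and the mean of the 6 NK cell markers ran from 7.78 to 8.44 in T-PNU and from 7.21 to 7.81 in T-DM1 mice. The lowest single log2 value of these cell type markers was 3.18, for the dendritic cell marker Lamp3, and the lowest over all genes was 1.13. No gene was therefore at 0, and whether a marker was detected cannot be read from these values.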

How the data were processed

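RNA of CD45+ cells from 24 tumors was measured by RNA-seq. Per the labels and the study's methods, the authors aligned reads to the mouse genome (mm10) with STAR 2.4.2a and counted reads per gene and strand with featureCounts (Subread 1.5.0). The authors removed genes with an average under 5 counts and used DESeq2 on the rest. The deposited values are on a log2 scale and normalized for library size, and the transformation is not named in the sources used here. Depth is therefore unknown, and tests were made on the log2 values as deposited.

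A model of 4 group means was fitted by limma (version 3.58.1, R 4.3.3, eBayes with a trend) to all 16996 genes of the 24 samples, and p-values were adjusted over them by the Benjamini-Hochberg method. A gene was called at an adjusted p under 0.05. P-values measure the spread between mice. The first alternative was the 20 samples of the study's heatmaps. Others were quantile normalization, genes above the median, only the 2 groups compared, sample weights, a T cell covariate, the study's thresholds (adjusted p under 0.01, fold above 2) and each replicate left out. The T cell covariate with the 20 samples was chosen after seeing the data. Gene members and lists were chosen with earlier results of these data known. Of the genes around them, 1 binding partner (Fgl1) had no value. Named are the members, 3 genes most like each, the largest and smallest value of each pathway list and its called genes. Some genes that this rule names are not reported here. The steps were tested on simulated data. Promoter windows came from RefSeq (GRCm38.p6), exon lengths and positions from GENCODE M21 (GRCm38), and figures were drawn with matplotlib 3.10.9.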

Additional observations from a re-analysis of the deposited data

Results flagged for a closer look

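Each member was screened in each group of 6 mice for a sample set apart from its group, by the gap to its nearest neighbour divided by the range of the group, against Dixon's 95% critical value for 6 samples. Of 40 such sets 2 were past it, where chance alone flags about 1 in 20 sets. Tigit in T-DM1 mouse H3, the lowest of its group at 8.15 with the other 5 at 8.60 to 8.72, had a ratio of 0.788. Lag3 in the same mouse, at 8.94 with the others at 9.43 to 9.70, had a ratio of 0.650. H3 also had the lowest T cell level of the T-DM1 mice, 8.02. Without H3, Tigit was 0.71 log2 units higher in T-PNU than in T-DM1 mice (limma adjusted p = 0.0218), against 0.80 with it.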

How the results depend on the processing

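Calls depended on the libraries used, on their weights and on the groups in the fit. Of 10 members, T-PNU against untreated mice gave 0 calls with all 24 samples, 8 with the 20 heatmap samples, 8 with sample weights, 1 with the 20 samples and the T cell covariate, and 0 to 4 with each replicate left out (4 without untreated C1). T-PNU against T-DM1 gave 2 calls, 7 with the 20 samples, 6 with only the 2 groups fitted, 7 with sample weights, 4 with the T cell covariate, 5 with that covariate and the 20 samples, 0 at the study's thresholds, and 1 to 4 with a replicate left out (4 without untreated B1 or T-PNU G1, 1 without T-DM1 E3, F3 or G3 or T-PNU H1). T-PNU against trastuzumab gave 5 with the 20 samples and 1 with weights, T-DM1 against untreated 1 with weights (Lag3) and 1 with the covariate (Ctla4), and T-DM1 against trastuzumab 0 to 1 with a replicate left out (1 without trastuzumab G2). The cause of these shifts was not tested. Over all genes, T-PNU against untreated gave 23 higher and 9 lower calls with the 24 samples and 2607 and 2672 with the 20, and T-PNU against T-DM1 2111 and 2962, then 3361 and 3420. With sample weights these were 2914 and 2913, then 3717 and 3866. Without untreated C1 the first comparison gave 1283 and 1646, and with only the 2 groups the second gave 2621 and 2960. The second gave 2749 higher calls without untreated B1 and 2470 without T-PNU G1. It gave 1140 to 1663 higher without T-DM1 E3, F3 or G3 or T-PNU H1. With sample weights T-PNU against trastuzumab gave 956 and 1300, and T-DM1 against untreated 1864 and 1433. Quantile normalization and the filter on low values, which kept 6 members, left every count of called members within 1.5 times.

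Some differences near 0 changed sign. With the T cell covariate, T-PNU minus untreated became -0.062 for Ctla4, -0.038 for Pdcd1lg2, -0.022 for Btla and -0.038 for Tox, and T-PNU minus T-DM1 became -0.010 for Lag3 and -0.0089 for Tox. With the covariate and the 20 samples, T-PNU minus T-DM1 was -0.035 for Lag3 and -0.0048 for Tox, and T-PNU minus trastuzumab was -0.0017 for Pdcd1. With the 20 samples, T-DM1 minus untreated was 0.22 for Ctla4, and T-PNU minus trastuzumab was 0.015 for Pdcd1lg2. For Havcr2, T-PNU minus untreated ran from -0.083 to 0.20 with a replicate left out. In the comparisons without T-PNU, 26 further differences of members gave 0 calls in any fit, and 15 of them changed sign in at least 1. No paired analysis was possible because the samples of different groups share no replicate numbers in the labels.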
